A study of Mus musculus with 3 samples.

Results

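The X-linked gene Atrx and the autosomal gene Daxx were followed transcript by transcript in mouse embryonic stem cells (ESCs) in which one or the other gene had been targeted. Their 16 transcripts, 12 of Atrx and 4 of Daxx, were taken by gene symbol from the 48843 annotated transcripts listed, with or without reads. The 3 libraries of polyadenylated RNA came from a wildtype clone (WT26), a clone of genotype DAXX-/- (KO2-3) and a clone of genotype ATRX-/- (KO1-44), with 1 library for each. All 3 were male ESCs of C57BL/6x129sV background, the knockouts had been made by CRISPR targeting, and all had been grown in serum with leukaemia inhibitory factor and moved from feeder cells to gelatin. Each genotype was therefore represented by 1 clone, and the sources used here do not give the site of the targeted change. With 1 library per genotype there was no replicate check: every interval below is a 95% interval of counting error alone, and each comparison is between libraries.

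ATRX is a chromatin remodeller of the Snf2 family, and DAXX is a chaperone that binds the histone variant H3.3. The 2 proteins act as a complex that places H3.3 at telomeres, pericentric repeats and other silent chromatin, and in ESCs the complex is known for its part in keeping repeats silent. ATRX carries an ADD domain near its amino end, which reads histone H3 methylation, and a helicase-type motor towards its carboxyl end, so transcripts that stop early can lack the sequence for the motor.

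Positions and exon structures are from GENCODE M21 on build GRCm38. Atrx lies at chrX:105797615-105929403 on the minus strand and Daxx at chr17:33909414-33915590 on the plus strand. The full-length Atrx transcript, Atrx-202 (ENSMUST00000113573), has 35 exons and 10275 bases. The other 11 Atrx transcripts are between 642 and 3233 bases long and all end in or before the exon that is the ninth of Atrx-202, and 10 of them are annotated as fragments whose 3′ end was not found. Besides ending early, 5 transcripts skip exon 2 and 5 skip exon 6, and Atrx-207 ends before exon 6. The shorter transcripts repeat the start of Atrx-202, and the splice junctions below tell some of them apart. Other differences lie in sequence that Atrx-202 lacks, which Atrx-201, described below, and several others hold. Atrx-217, Atrx-210 and Atrx-209 share 1524 of 1920, 1390 of 1716 and 1014 of 1155 bases with Atrx-202. For Atrx-207 and Atrx-211 the numbers are 579 of 720 and 503 of 644. Each junction is written with 15 bases on either side, on the minus strand and 5′ to 3′, and the capitals mark the exon that follows.

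Exon 1 to exon 2: cgctgagcccatgagTGGAAACAAGTTGAG
Exon 1 to exon 3: cgctgagcccatgagATAAAATCTGTGGTT
Exon 5 to exon 6: aaagcttgccaaaagGTACAGTGATTGTAC
Exon 5 to exon 7: aaagcttgccaaaagAAGATGGACTTCATG
Exon 5 to exon 7, later start: aaagcttgccaaaagATGGACTTCATGGGA

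The first junction is held by Atrx-202, Atrx-206 and Atrx-223, and the second by Atrx-218, Atrx-224 and Atrx-226. The junction into exon 6 is held by 6 transcripts, among them Atrx-202 and Atrx-201. The junction that skips exon 6 is held by Atrx-209, Atrx-210, Atrx-223 and Atrx-226, and Atrx-206 skips the same exon but enters exon 7 at a later base. Exon 6, at chrX:105884307-105884420, is shown whole in capitals because its presence divides the transcripts. It holds 114 bases, which is 38 codons, all within the coding sequence, so leaving it out keeps the reading frame.

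Exon 6: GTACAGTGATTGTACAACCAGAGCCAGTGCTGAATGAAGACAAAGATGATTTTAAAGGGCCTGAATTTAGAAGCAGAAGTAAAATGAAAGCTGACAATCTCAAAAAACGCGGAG

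**Figure D1:**
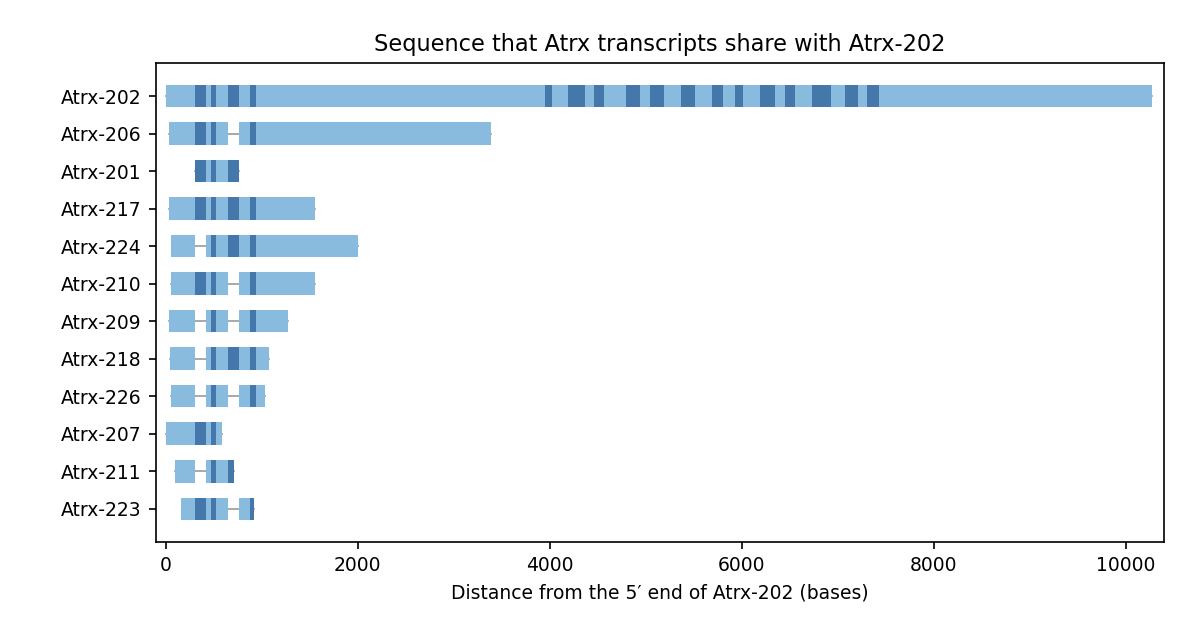
Sequence that each of the 12 Atrx transcripts shares with Atrx-202, plotted along Atrx-202 in bases from its 5′ end; shades alternate with exon number and thin lines mark exons left out. The 11 shorter transcripts lie over the start of Atrx-202. Sequence that Atrx-202 does not hold is not drawn. This leaves out the 90-base first exon of Atrx-201 and its 2352 bases beyond exon 6. Parts of Atrx-217, Atrx-210, Atrx-209, Atrx-207 and Atrx-211 are left out too.

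The amount of sequence that is particular to a transcript was counted as stretches of 50 bases found in no other Atrx transcript. Atrx-202 had 6894 such stretches of its 10226, and Atrx-201 (ENSMUST00000101305) had 2439 of its 2854. Most of the latter lie in the last exon of Atrx-201, at chrX:105881955-105884420, which runs through exon 6 and on for 2352 bases into the intron that follows. The remaining 10 transcripts had between 0 and 118 stretches of their own, and 5 of them had 0. A read assigned to one of those 5 could equally have come from another Atrx transcript, so the counts of the shorter transcripts are not separate measurements of separate RNAs. Pairs of transcripts with identical sequence bear on how such reads were placed: in pairs with at least 20 reads, the chi-square per pair against an even split was 1.05, 0.668 and 0.986 for wildtype, DAXX knockout and ATRX knockout, near the value of 1 that even random placement gives. No stretch of the Atrx transcripts occurred in a transcript of another gene, among transcripts whose sequence could be matched.

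The libraries held 13981915, 11224100 and 13988376 reads on transcripts for wildtype, the DAXX knockout and the ATRX knockout. All 6 ESC markers examined had reads, with summed levels of 3781, 4361 and 4204 CPM in that order (read counts scaled by effective library size). Of 6 fibroblast markers, which would mark leftover feeder cells, 6, 5 and 5 had reads, with summed levels of 28.1, 7.51 and 13.1 CPM, and Col3a1 had 2, 0 and 0 reads. The fibroblast sum was thus highest in wildtype. Of the 5 fibroblast markers tested, 4 in the DAXX knockout over wildtype and 1 in the ATRX knockout met the rule for a lower level given below. Over all genes tested, 1.55% and 1.15% met that rule. The part of the fibroblast sum in the results that follow was not tested.

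Atrx, summed over its 12 transcripts, gave 4582 wildtype reads, 3576 DAXX knockout reads and 1800 ATRX knockout reads. Scaled, these were 315.7, 327.4 and 130.0 CPM, so the first 2 libraries were close and the ATRX knockout stood low. Atrx fell to 41.2% of the wildtype level in the ATRX knockout (interval 39.0 to 43.5%), a log2 fold of -1.28 (-1.36 to -1.20). A gene was called lower or higher when all of its interval was past 2-fold; a gene was tested if either library reached 1 CPM. By this rule Atrx was called lower, as were 1.15% of the 13230 genes tested, and 2.65% of the genes had a lower fold than Atrx. Against the DAXX knockout, Atrx was again called lower in the ATRX knockout, at a log2 fold of -1.33 (-1.42 to -1.25), where 0.362% of 12991 genes were called lower. Both comparisons use the same ATRX knockout library. Atrx RNA was still abundant in the library labelled ATRX knockout. Ranked by CPM per kilobase of the longest transcript among 12759 genes with a mean of at least 1 CPM, Atrx stood at percentile 60.2 there, against 81.1 in wildtype and 80.8 in the DAXX knockout. In bulk RNA, fewer cells with the transcript and less transcript in each cell cannot be told apart.

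Daxx, summed over its 4 transcripts, gave 1125 wildtype reads, 623 DAXX knockout reads and 972 ATRX knockout reads, or 77.5, 57.0 and 70.2 CPM. The DAXX knockout was the lowest of the 3 and the ATRX knockout lay between. The log2 fold of Daxx in the DAXX knockout over wildtype was -0.44 (-0.59 to -0.30), so 73.6% of the wildtype level (66.6 to 81.2%) was measured in the library labelled DAXX-/-. Daxx was not called in that comparison, in which 1.55% of 13151 genes were called lower, and 13.8% of genes had a lower fold. In the ATRX knockout the log2 fold of Daxx over wildtype was -0.14 (-0.27 to -0.02). Read counts per transcript do not show the targeted sequence, so the label of the DAXX knockout could not be checked further here.

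The partner gene of each knockout was also read. In the DAXX knockout, Atrx had a log2 fold over wildtype of 0.05 (-0.01 to 0.12). Its interval held 0, and 54.8% of genes had a lower fold. The ratio of Atrx to Daxx, in reads per kilobase of the longest transcript, was 1.06 (0.992 to 1.13) in wildtype, 1.49 (1.37 to 1.63) with DAXX knocked out and 0.482 (0.445 to 0.521) with ATRX knocked out. The 2 genes had nearly equal levels per length in wildtype, and the knockouts departed from that in opposite directions.

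Most Atrx reads stood on the full-length transcript. Atrx-202 gave 3433 wildtype reads, 2776 DAXX knockout reads and 1377 ATRX knockout reads. Its share of all Atrx reads was 74.9% (73.6 to 76.2), 77.6% (76.2 to 79.0) and 76.5% (74.5 to 78.4), and the ATRX knockout interval overlapped both others. The wildtype interval ended at 76.17% and that of the DAXX knockout began at 76.23%, so these did not overlap. The ratio of the DAXX knockout share to the wildtype share, 1.04 (0.985 to 1.09), had an interval that held 1. Atrx-206, the longest of the early-ending transcripts and without exon 6, had 576, 387 and 220 reads, a share of 12.6%, 10.8% and 12.2%; the DAXX knockout share was 0.861 of the wildtype share (0.755 to 0.981). Atrx-224, without exon 2, had 148, 107 and 58 reads. Atrx-217, which holds both exons, had 111, 78 and 45 reads, and Atrx-210, without exon 6, had 93, 67 and 31. These 3 transcripts all stood lowest in the ATRX knockout. The other 7 transcripts had under 50 reads each in wildtype, from 19 for Atrx-207 to 45 for Atrx-218, and between 4 and 15 in the ATRX knockout.

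**Figure D2:**
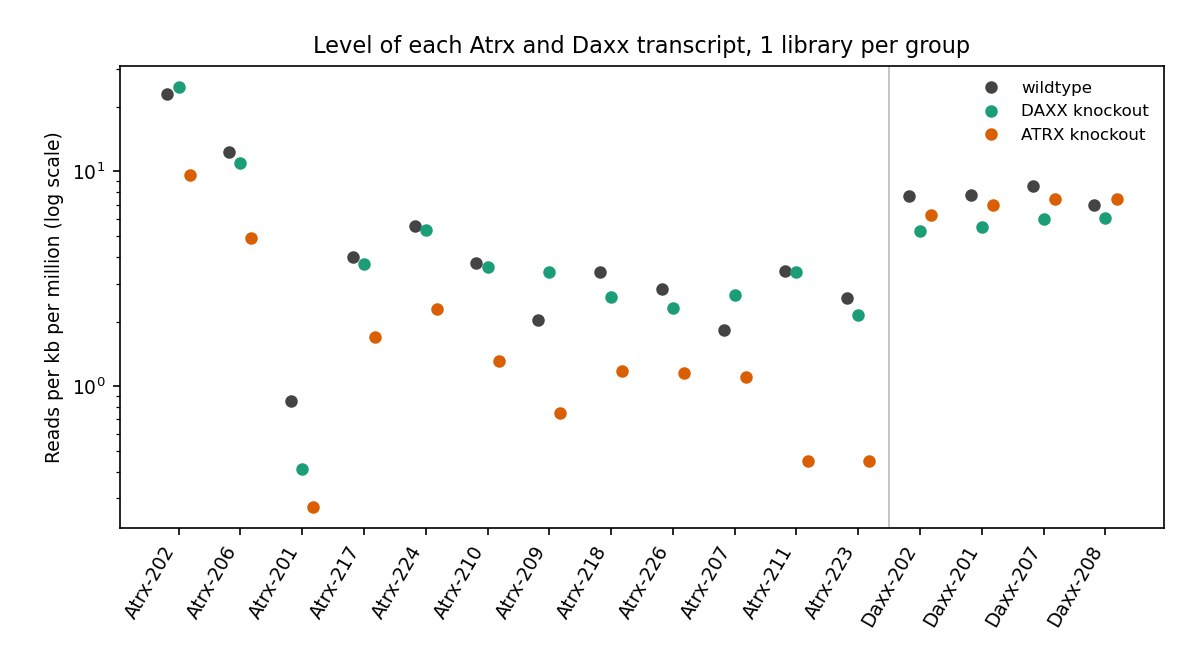
CPM per kilobase of transcript for each of the 12 Atrx and 4 Daxx transcripts, on a log scale with 1 point per library. For Atrx-202 the wildtype and DAXX knockout points stand at 23.0 and 24.7 and the ATRX knockout point at 9.68.

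The lower level in the ATRX knockout was spread over the Atrx transcripts. All 12 had a log2 fold below 0 against wildtype, with a median of -1.38, and the whole interval was below 0 for 11 of them; the exception was Atrx-207 at -0.72 (-1.94 to 0.42), with 11 and 19 reads. The same rule as for genes called 3 of the 12 lower, where 0.767% of 27887 transcripts were called lower and 0.513% higher. These were Atrx-202 at -1.25 (-1.34 to -1.16), Atrx-206 at -1.32 (-1.55 to -1.09) and Atrx-211 at -2.93 (-4.89 to -1.44). Atrx-211 rests on 4 reads in the ATRX knockout and 32 in wildtype. The fold of the gene, -1.28, lay inside the interval of 11 transcripts and outside that of Atrx-211. The gene's fold is made of these same reads, mostly those of Atrx-202, and intervals at low counts are wide. Its place inside them is therefore no separate check. Over the DAXX knockout the rule called Atrx-202, Atrx-209 and Atrx-211 lower in the ATRX knockout, 3 of 12, where 0.229% of 27508 transcripts were called lower. Because the transcripts share reads, the 12 folds are not independent of one another.

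**Figure D3:**
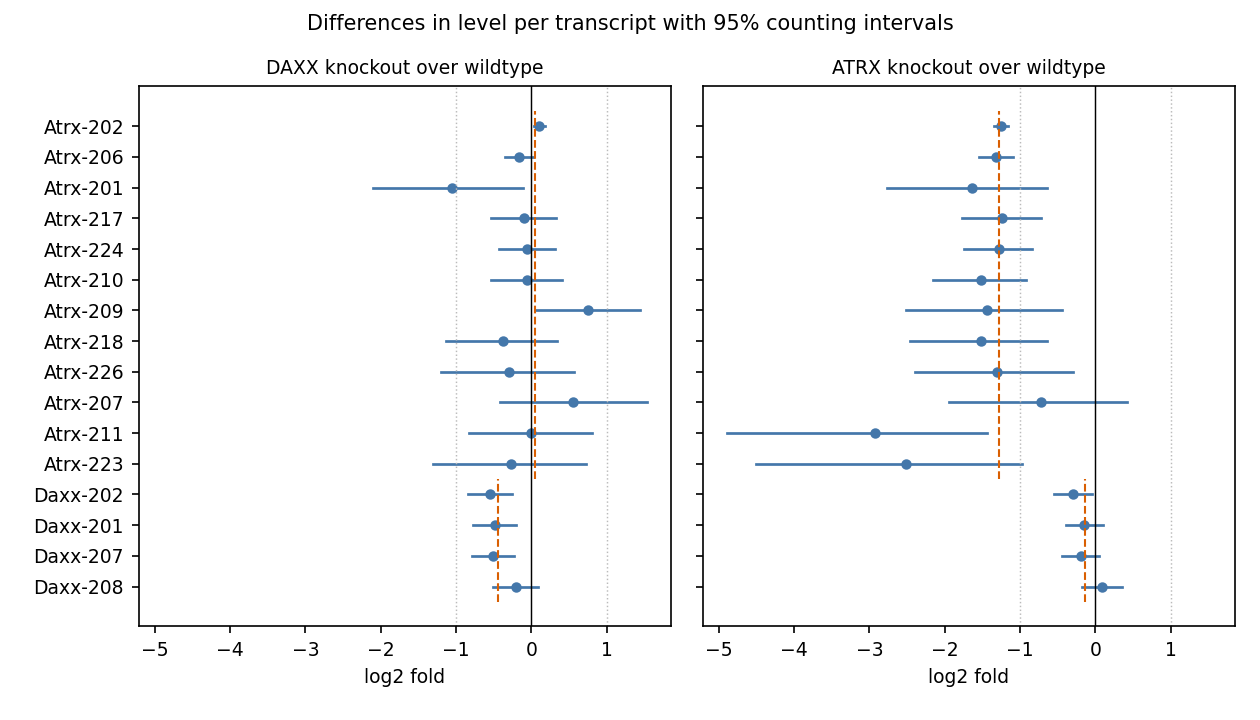
Log2 fold over wildtype of each of the 16 transcripts in the DAXX knockout and the ATRX knockout, with 95% counting intervals the gene's own fold as a dashed line and 2-fold as dotted lines. In the ATRX knockout all 12 Atrx points lie below 0, around the gene's fold of -1.28, and their intervals widen as reads become few.

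Within the gene, no transcript's share of Atrx reads was called changed, by the same rule applied to the ratio of shares. That rule called 0.0179% of 22365 transcripts in the ATRX knockout over wildtype and 0.0225% of 22252 in the DAXX knockout over wildtype. A rule met by so few transcripts says little about smaller changes. In the ATRX knockout the interval of the ratio lay off 1 for Atrx-211, at 0.318 (0.0818 to 0.897). In the DAXX knockout it lay off 1 for Atrx-206, given above, for Atrx-201 at 0.463 (0.225 to 0.893) and for Atrx-209 at 1.62 (1.01 to 2.62).

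In the DAXX knockout 0 of the 12 Atrx transcripts were called against wildtype, where 0.872% of transcripts were called lower and 0.418% higher. Of their log2 folds, 9 were below 0, although that of the gene was 0.05, because Atrx-202, which holds most of the reads, was at 0.10 (0.03 to 0.18). Without Atrx-202 the 11 shorter transcripts had 1149, 800 and 423 reads, a log2 fold of -0.11 (-0.24 to 0.02) with DAXX knocked out and of -1.37 (-1.54 to -1.21) with ATRX knocked out. Atrx-201 had 36, 13 and 11 reads, and its whole interval in the DAXX knockout lay below 0, at a log2 fold of -1.06 (-2.10 to -0.11). Atrx-209 had 34, 43 and 12 reads and lay above 0 in the DAXX knockout, at 0.75 (0.07 to 1.44). Both are single transcripts of low count, and neither was called.

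How many reads each transcript would receive from sequence alone was computed to read the shares. If every distinct stretch of Atrx sequence gave equally many reads, and reads that fit several transcripts were divided evenly, Atrx-202 would receive 59.4% of Atrx reads and Atrx-201 18.6%. The measured share of Atrx-201 was 0.786% of wildtype reads, 0.364% of DAXX knockout reads and 0.611% of ATRX knockout reads. These are 0.0424, 0.0196 and 0.0329 of the expected share. Per length the same was seen: Atrx-201 had 12.4, 4.48 and 3.79 reads per kilobase, against 334, 270 and 134 for Atrx-202. The sequence of Atrx-201 that runs past exon 6 was therefore read rarely in all 3 libraries.

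A second calculation, added after these values were seen, let only the sequence of Atrx-202 give reads. The expected share of Atrx-202 was then 78.0% and that of Atrx-201 0.52%. The measured shares differed from these by 7.71, 2.86 and 5.41 percentage points for wildtype, DAXX knockout and ATRX knockout, summed without sign over the 12 transcripts. Under even reading of all Atrx sequence the same sums were 41.3, 42.7 and 43.7. The interval of the measured share held the expected share for 8, 11 and 10 of 12 transcripts, against 4, 5 and 4. Within these intervals, which are wide at low counts, most of the shorter transcripts had about as many reads as an even division of full-length reads would give. Atrx-206, which had the most reads among them, stood at 1.25 (1.15 to 1.34) of its expected share in wildtype. In the DAXX and ATRX knockouts Atrx-206 stood at 1.07 (0.973 to 1.18) and 1.21 (1.06 to 1.37). In wildtype Atrx-201 and Atrx-211 were also above theirs, at 1.51 (1.06 to 2.09) and 1.72 (1.18 to 2.42). Atrx-202 was below its own there, at 0.960 (0.944 to 0.976). In the DAXX knockout Atrx-211 stood above its expected share, at 1.65 (1.06 to 2.45). In the ATRX knockout Atrx-223 stood below, at 0.333 (0.0908 to 0.851).

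**Figure D4:**
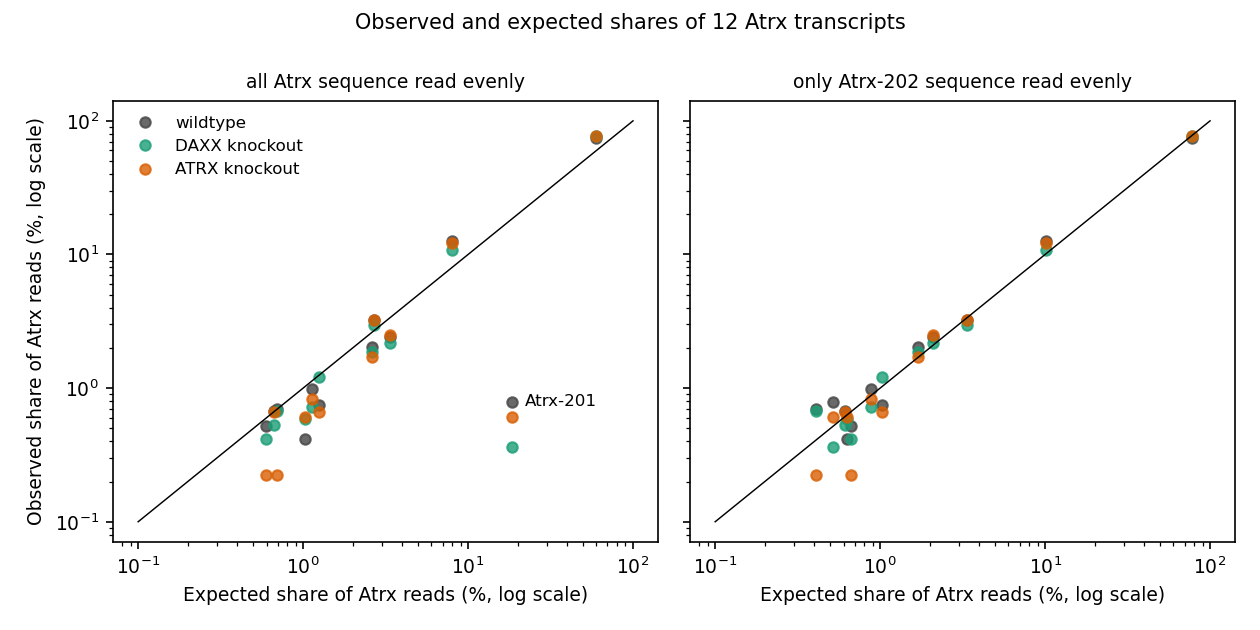
Measured share of Atrx reads (y axis, log scale) against the share expected from sequence (x axis, log scale) for 12 transcripts in 3 libraries, with the line of equality; on the left all Atrx sequence is read evenly, on the right only that of Atrx-202. Atrx-201 stands far below the line on the left, at 18.6% expected and under 1% measured, and most points on the right lie near the line.

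The shared and own sequence of Atrx-202 were also compared. Its shared stretches, 3332 in number or 32.6% of the transcript, lie at the start. Their read density was estimated from all reads on the 11 shorter transcripts under even division, a measure chosen after seeing the data. Reads from sequence that Atrx-202 lacks were not taken out. The estimate was 511, 356 and 188 reads per 1000 stretches in wildtype, the DAXX knockout and the ATRX knockout. For the 6894 stretches that are Atrx-202's own, the same division left 418, 347 and 170. The estimated density of the own stretches was 0.817, 0.975 and 0.905 of that of the shared ones, or 0.825, 0.966 and 0.907 without the reads on Atrx-201. The ATRX knockout lay between the other 2 libraries in this ratio. The files give no positions of reads within a transcript.

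The 4 Daxx transcripts had nearly equal counts. In wildtype Daxx-202 (ENSMUST00000170075) had 299 reads, Daxx-201 290, Daxx-207 300 and Daxx-208 236. The DAXX knockout gave 154, 156, 159 and 154 reads and the ATRX knockout 232, 250, 250 and 240, in the same order. An even share of 25% lay inside the interval of all 4 transcripts in both knockouts and of 3 in wildtype, the exception being Daxx-208 (18.6 to 23.5%). Daxx-201 and Daxx-202 shared 2371 stretches and had 161 and 253 of their own, so most of their reads could fall on either. These stretches are from GENCODE M21, in which Daxx-201 is 2581 bases long, against 2580 in the files. Daxx-207 and Daxx-208, of 2424 and 2325 bases in the files, are 558 and 788 bases long in that release, so their sequence was not analysed here and no expected shares were computed for Daxx.

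None of the 4 Daxx transcripts was called in either knockout. Of all transcripts tested, 0.872% were called lower and 0.418% higher in the DAXX knockout, and 0.767% and 0.513% in the ATRX knockout. Against wildtype, the DAXX knockout had all 4 log2 folds below 0, from -0.55 to -0.21, and the whole interval was below 0 for 3 of them. The ATRX knockout had 3 of 4 below 0, from -0.30 to 0.09. No share was called changed in either, where 0.0225% and 0.0179% of all shares tested were.

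The genes on either side of the 2 loci were examined for a change that reached beyond the targeted gene. Next to Atrx, Magt1, a magnesium transporter gene, had 454, 269 and 378 reads in wildtype, the DAXX knockout and the ATRX knockout, with log2 folds over wildtype of -0.34 and -0.20. Cox7b, a subunit gene of cytochrome c oxidase, had 2210, 1851 and 2473 reads, with log2 folds of 0.15 and 0.23. Fgf16 and Cypt2, on the other side, had 0 reads in all 3 libraries. Next to Daxx, the kinesin gene Kifc1 had 2330, 1832 and 2805 reads, with log2 folds of 0.06 and 0.34. Tapbp, which encodes tapasin and starts 309 bases past Daxx, had 288, 171 and 238 reads, with log2 folds of -0.34 (-0.62 to -0.06) and -0.21 (-0.46 to 0.05). In the DAXX knockout the intervals of Tapbp and Daxx overlapped. Zbtb22, which overlaps Tapbp, had 212, 196 and 204 reads, with log2 folds of 0.30 (0.01 to 0.58) and 0.01 (-0.27 to 0.30). None of these neighbours was called, nor was Daxx itself. On the X chromosome as a whole the median log2 fold was 0.00 and -0.02 in the DAXX and ATRX knockouts. Of the X-linked genes, 26 of 427 were called lower in the DAXX knockout and 14 of 426, Atrx included, in the ATRX knockout, with 0 called higher in either; over all genes 1.55% and 1.15% were called lower. On chromosome 17, which holds Daxx, 5 of 648 genes were called lower and 2 higher in the DAXX knockout, and 5 of 653 lower and 5 higher in the ATRX knockout, with medians of 0.07 and 0.07.

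The genes with the most similar pattern were found by the distance between log2 CPM values centred over the 3 libraries, among 9042 genes. Nearest to Atrx was Ntn1, the gene for the guidance cue netrin, with 702, 527 and 273 reads and a distance of 0.0418. Nupr1, Cpsf4l, Trib3 and Dpp4 followed, at distances up to 0.0881. Nearest to Daxx was Tbc1d10a with 517, 289 and 449 reads and a distance of 0.00997, followed by Zfp870, Mrps12, Stard3 and Ift57 at up to 0.0182. With 3 libraries a pattern has few ways to differ, and likeness here is only closeness of 3 values.

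A list of 52 genes that work with or beside ATRX and DAXX was read in the same way, and 51 could be tested. None was called lower or higher in either knockout, where 1.55% and 1.15% of all genes were called lower and 0.487% and 0.695% higher. The median log2 fold over wildtype was 0.05 and -0.03 in the DAXX and ATRX knockouts, beside 0.02 and 0.02 over all genes. The lowest log2 fold on the list in the ATRX knockout was -1.07, for Smarca2, whose interval held that of Atrx, -1.28.

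Among the 22 tested genes for H3.3 and partner proteins, the medians were 0.05 and -0.04. Pml, which builds the nuclear bodies where DAXX gathers, had 2643, 3217 and 3536 reads, with log2 folds of 0.69 (0.62 to 0.77) and 0.49 (0.41 to 0.56). Sumo3, a small modifier that DAXX binds, had log2 folds of 0.45 and 0.44. H3f3b, one of the genes for H3.3 itself, had 11711, 6843 and 8630 reads and log2 folds of -0.36 and -0.37. H3f3a, the other H3.3 gene, named after its values were seen, had 12389, 10628 and 13538 reads and log2 folds of 0.19 (0.15 to 0.23) and 0.20 (0.16 to 0.23), on the other side of 0. These values were beyond counting error and within 2-fold.

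The 10 other H3 chaperone genes had medians of 0.09 and 0.01. Asf1a, which hands H3 to other chaperones, had a log2 fold of 0.30 in the DAXX knockout. Chaf1b, a subunit gene of the CAF-1 complex, had 0.33 in the ATRX knockout, and Ubn2, a partner of the HIRA chaperone, had -0.33 there. The 19 Snf2-family remodeller genes had medians of -0.00 and -0.08. Smarca1, an ISWI-type remodeller, had 270, 327 and 512 reads, with log2 folds of 0.69 and 0.99 (0.78 to 1.21). Smarca2, a motor of the BAF complex, had 33, 7 and 15 reads and log2 folds of -1.83 (-3.25 to -0.63) and -1.07 (-2.06 to -0.15). Hltf had 0.52 and 0.45, and Smarcad1 had -0.45 in the ATRX knockout.

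**Figure D5:**
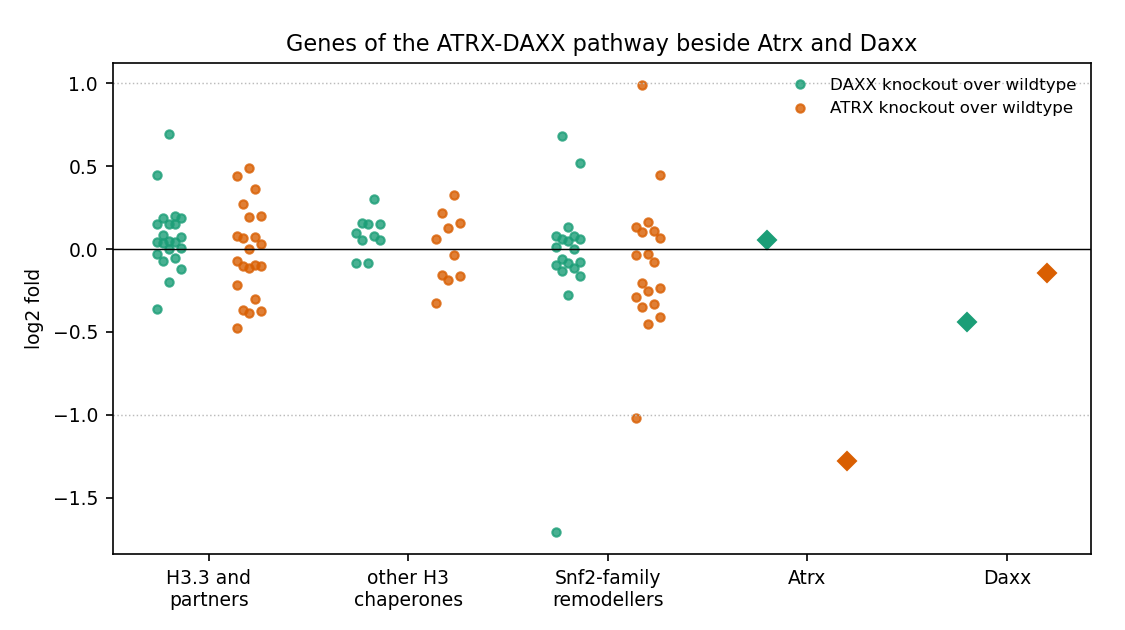
Log2 fold over wildtype in the DAXX and ATRX knockouts for each tested gene of the 3 role groups, with a prior count of 1. Diamonds mark Atrx and Daxx, without a prior count, and dotted lines mark 2-fold. Most points lie within 2-fold of 0, the diamond of Atrx in the ATRX knockout lies at -1.28, and the lowest point is Smarca2 in the DAXX knockout, which rests on 7 reads.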

How the data were processed

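The values are read counts per transcript as deposited by the authors, not normalised, in the layout of the idxstats command of SAMtools. The submitters' processing notes name Bowtie 1.1.2, SAMtools and build GRCm38.p4; the sources used here give no alignment settings, strand or annotation release. Reads were placed on transcripts, so intron reads enter only where a transcript holds them, and without strand an antisense RNA would be counted with its gene. The annotated genes Gm26020, Gm14853 and Gm23656 overlap Atrx and were not analysed here.

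Transcript counts were summed per symbol. Library sizes were scaled by TMM (edgeR 4.0.16, R 4.3.3), with factors of 1.04, 0.973 and 0.990 for wildtype, the DAXX knockout and the ATRX knockout. With 1 library per group and 0 residual degrees of freedom no p-value was computed. Folds carry the exact conditional binomial (Clopper-Pearson) 95% interval, shares the exact binomial one; both cover counting error only, and PCR copies are not independent. The call rule was checked only on simulated counts with counting error and large changes, so spread between libraries or clones was not covered. Transcript structures and sequences are from GENCODE M21, where 48315 (98.9%) of the identifiers and 13 of the 16 members at equal length were found. The planned expected shares were run for Atrx only, since 3 Daxx lengths differ from that release. Like genes needed a mean of 10 CPM, and predicted genes, pseudogenes and clone names, Riken names included, were left out; pathway genes were named by size of fold, up to 3 per role and knockout, and 1 item among them is not reported here. The members, lists and rules were chosen with earlier results of these data known. Alternatives were DESeq2 1.42.0 size factors, total-read scaling, thinning, other filters, other fold limits, other stretch lengths and other ways of summing transcripts.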

Additional observations from a re-analysis of the deposited data

How the results depend on the processing

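No called fold changed sign under the alternatives run, but values near 0 and ratios of measured to expected shares did cross 0 or 1. The log2 fold of Atrx in the ATRX knockout ranged from -1.37 to -1.25 over wildtype and from -1.35 to -1.26 over the DAXX knockout. It was called under 10 of 10 settings each time. Other filters and the looser fold limit could not change this fold, and the most-read and longest Atrx transcripts are both Atrx-202. The log2 fold of Daxx in the DAXX knockout ranged from -0.55 to -0.44 and was never called. Atrx in the DAXX knockout, near 0, was at -0.041 with total-read scaling and at -0.11 without its full-length transcript, an alternative chosen after seeing the data. Daxx in the ATRX knockout was at -0.30 from its longest transcript alone. The Atrx transcripts called lower in the ATRX knockout numbered 3 of 12 at 2-fold and 9 with a limit of 1.5-fold, where 490 of 27887 transcripts were lower. Over the DAXX knockout they numbered 3 at 2-fold, 8 at 1.5-fold, where 266 of 27508 were lower, and 1 with a filter of 5 CPM, where 48 were lower; that filter leaves the low-count Atrx-209 and Atrx-211 untested; over wildtype that filter leaves Atrx-211 untested too. Per kilobase, the share of Atrx-202 was 35.2%, 37.9% and 38.4% in wildtype, the DAXX knockout and the ATRX knockout. Where only Atrx-202 sequence gave reads, also chosen after seeing the data, Atrx-201 stood at 1.51, 0.699 and 1.18 of its expected share and Atrx-202 at 0.960, 0.995 and 0.981, against 1.26, 1.31 and 1.29 with all Atrx sequence; with stretches of 100 bases Atrx-202 stood at 1.29 in wildtype and 1.34 in the DAXX knockout.

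The number of genes called depended on the filter and the limit. In the DAXX knockout, 108 were lower with a filter of 5 CPM, and 412 were lower and 184 higher with a limit of 1.5-fold. In the ATRX knockout the same numbers were 88 lower, then 364 lower and 336 higher. In the ATRX knockout over the DAXX knockout, 64 were higher at 5 CPM, and 193 lower and 325 higher at 1.5-fold. Of transcripts, 104 were lower in the DAXX knockout at 5 CPM, and 506 lower and 286 higher at 1.5-fold; in the ATRX knockout 103, 490 and 499; and over the DAXX knockout 63 higher, 266 lower and 385 higher. The cause was not tested beyond the fewer features tested at 5 CPM. No paired analysis was possible because each genotype had 1 library. Depth limits the shorter Atrx transcripts: 7 of 12 had under 50 reads in wildtype.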
